A study of Mus musculus with 6 samples.

Results

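The 8 genes of the chaperonin CCT were followed across a comparison of mature and elongating fiber cells of the mouse lens. They were picked by name, as the probes annotated to Tcp1, Cct2, Cct3, Cct4, Cct5, Cct6a, Cct7 or Cct8, and all 8 were found, with 1 probe each, among 16504 named genes. They were chosen because earlier results of these data put subunits of one complex on opposite sides, so their log ratios are described here and not tested.

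CCT, also called TRiC, is a barrel of stacked rings in the cytosol. Each ring holds one copy of every subunit in a fixed order, and binding and hydrolysis of ATP close a lid over a protein that folds inside. Its best known clients are actin and tubulin, and prefoldin hands such chains to it. Lens fibers lengthen greatly on an actin and microtubule skeleton, fill with crystallins and then lose their nuclei and organelles as they mature. The RNA for their later proteins is thus made before transcription ends.

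Both fiber populations came from the mouse strain TgN(GFPU)5Nagy, a transgenic line that expresses GFP, and were taken by laser capture microdissection out of 5 µm lens sections. On each of 6 arrays of 2 colours the populations were set against each other. Arrays lens249, lens487 and lens493 had mature fibers in channel 1, and lens250, lens488 and lens455 had elongating fibers there. For lens249 and lens250 the labels add that lenses of littermates at postnatal day 5 were pooled, with at least 200 cells from about 40 slices; no age is stated for the other arrays.

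The values are log ratios whose base and numerator are not stated. The signs of lens250, lens488 and lens455 were reversed, so that the 6 arrays run the same way. If channel 1 is the numerator, a positive value is then higher in mature fibers, and if channel 2 is, higher in elongating fibers. Dnase2b, the nuclease that clears DNA from lens fibers, marked the positive side (1.81 ± 0.30, SD, n = 6) and the adhesion gene Cdh2 the negative side (-1.78). A ratio holds no level, so whether a subunit or a marker of lens fibers is abundant or absent cannot be read from it. A bulk ratio also cannot tell fewer cells of a type from less RNA per cell.

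The labels do not say which arrays share RNA, so p-values measure the spread between arrays, which may be technical. Across features, deviations from the mean of each orientation correlated with r = 0.188 between lens249 and lens250, 0.575 between lens487 and lens488 and 0.372 between lens493 and lens455. In the 6 other combinations of opposite orientation r lay between -0.361 and -0.053. Deviations from a mean of 3 arrays sum to 0, which lowers the r of the other combinations. Whether the arrays of a couple share RNA cannot be told from the labels, so averages of these 3 couples are given beside the single arrays. Before turning, the 9 combinations of opposite orientation had r from -0.621 to -0.041 and the 6 of equal orientation r from 0.128 to 0.337. By rank, 6 of those 9 lay below 0 (rho from -0.359 to 0.059), and lens249 lay above 0 against all 3 arrays of the other orientation. Without lens249 all 8 subunits kept the sign of their mean, with 0.63 for Cct8 and -0.51 for Cct6a.

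The sequences just before the starts of the subunit genes at the ends of the order are shown because these genes lie on opposite sides. They are 100 bases long, from RefSeq on build GRCm38.p6, and end at the base before the most upstream listed start. Capitals mark the CCAAT box (CCAAT) and the core of ETS factor sites (CCGGAA) on either strand.
Cct8: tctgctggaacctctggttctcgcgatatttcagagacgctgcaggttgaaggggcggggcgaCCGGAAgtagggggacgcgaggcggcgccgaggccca
Cct5: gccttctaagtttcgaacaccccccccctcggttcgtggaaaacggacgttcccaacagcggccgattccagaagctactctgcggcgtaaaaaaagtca
Cct6a: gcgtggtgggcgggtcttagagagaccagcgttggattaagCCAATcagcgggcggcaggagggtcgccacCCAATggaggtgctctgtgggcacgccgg
Cct2: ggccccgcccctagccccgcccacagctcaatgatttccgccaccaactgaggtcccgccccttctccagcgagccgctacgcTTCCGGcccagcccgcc
The Cct8 stretch is chr16:87495870-87495969, minus strand, and that of Cct5 is chr15:31601847-31601946, minus strand. The Cct6a stretch is chr5:129787256-129787355, plus strand, and that of Cct2 is chr10:117063853-117063952, minus strand. Cct8 and Cct2, which lie on opposite sides, each have an ETS core here, Cct6a has 2 CCAAT boxes, and Cct5 has neither.

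Of the 8 subunits, 5 had a mean below 0 and 3 a mean above 0. The means ran from -0.52 for Cct6a to 0.57 for Cct8, a range of 1.08, in the order Cct6a, Cct2, Cct7, Tcp1, Cct4, Cct3, Cct5 and Cct8. The median of the 8 was -0.26, beside 0.003 over all 19624 features, of which 51% lay above 0. Values by array are listed below in the order lens249, lens250, lens487, lens488, lens493 and lens455.

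Cct8, the theta subunit, whose level in human stem cells is known to promote assembly of the complex, had 0.245, 0.791, 0.806, 0.475, 0.368 and 0.716. All 6 lay above 0, and the mean was 0.57 ± 0.24 (SD, n = 6). The 3 couples averaged 0.52, 0.64 and 0.54. If the values are log2 this mean is a 1.48-fold difference, and if they are log10 a 3.69-fold difference. On every array Cct8 stood at or above the 86.3 percentile of all features.

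Cct5, the epsilon subunit, known to form rings by itself, like Cct4, when the human protein is made in bacteria, lay on the same side with 0.450, 0.437, -0.106, 0.409, 0.020 and 0.938. Its mean was 0.36 ± 0.37, with array lens487 below 0 and lens493 close to 0. Averages of the couples were 0.44, 0.15 and 0.48. The highest value, on lens455, was at the 99.1 percentile of that array, and the lowest, on lens487, at the 30.0 percentile.

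Cct3, the gamma subunit, had -0.056, 0.482, 0.032, -0.149, 0.412 and 0.104. Its mean of 0.14 ± 0.26 was smaller than its spread, with 4 of 6 arrays above 0. Cct3 therefore has no clear side.

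Cct6a, the zeta subunit, had the lowest mean, with -0.567, -0.701, -0.613, -0.364, -0.469 and -0.384. All 6 values lay below 0 and at or below the 12.4 percentile of their array, with a mean of -0.52 ± 0.13. The couples averaged -0.63, -0.49 and -0.43. This is a 1.43-fold difference if log2 and a 3.28-fold difference if log10.

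Cct2, the beta subunit, mutated in a human inherited retinal dystrophy, had -0.119, -0.543, -0.449, -0.488, -0.389 and -0.747. It lay below 0 on every array, least on lens249 and most on lens455, with a mean of -0.46 ± 0.21. The couples averaged -0.33, -0.47 and -0.57.

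Cct7, the eta subunit, had -0.402, -0.823, -0.334, 0.014, -0.574 and -0.370, a mean of -0.41 ± 0.28. It lay below 0 on 5 arrays and at about 0 on lens488, where the deposited value before centring is exactly 0. Of 22575 probes on lens488 29 had exactly 0, and whether this 0 is a measured ratio was not tested. The couple of lens487 and lens488, which includes this value, averaged -0.16 for Cct7, against -0.61 and -0.47 for the others.

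Tcp1, the alpha subunit that gave the complex its name, had 0.233, -0.178, -0.208, -0.352, -0.702 and -0.795. The mean was -0.33 ± 0.38, and the couples averaged 0.03, -0.28 and -0.75. Its SD was the highest of the 8, close to that of Cct5, and its values differed more between couples than within them, with lens249 above 0.

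Cct4, the delta subunit, mutated in a rat strain with sensory neuropathy, had -0.161, -0.269, -0.066, -0.210, -0.269 and -0.114. All 6 lay below 0. The mean was small, -0.18 ± 0.08, and its spread was the narrowest of the 8.

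**Figure D1:**
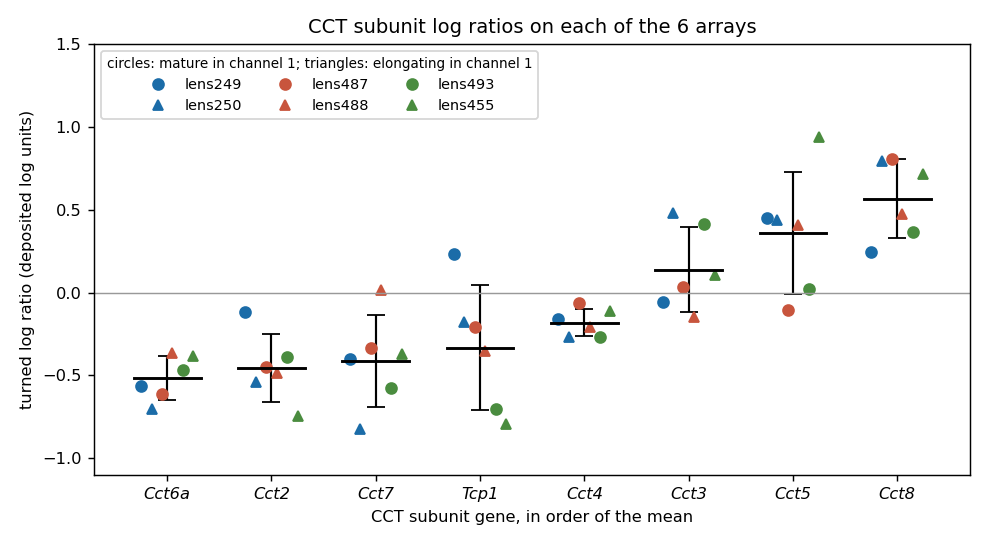
Turned log ratio, in deposited log units, of each CCT subunit gene on each of 6 arrays, with the mean (bar) and SD over arrays (whiskers); colours join the couples of arrays that deviated together. Cct8 lies above 0 and Cct6a, Cct2 and Cct4 below 0 on all 6 arrays, with means of 0.57, -0.52, -0.46 and -0.18.

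In all, 4 of the 8 subunits had one sign on all 6 arrays, Cct8 above 0 and Cct6a, Cct2 and Cct4 below. Over all features the share with one sign was 9.17%, with 3.52% above 0 and 5.65% below. Since the contrast served to choose the subunits, nothing is read from this share. On 5 arrays 3 subunits lay above 0 and 5 below, and on lens487 2 lay above and 6 below. The range over the 8 subunits was 0.963 on lens488, where it was narrowest, and 1.73 on lens455, where it was widest.

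Within each array the difference between 2 subunits does not depend on how the array is centred. Cct8 lay above Cct6a on 6 of 6 arrays, by 0.812 (lens249) to 1.49 (lens250), a mean of 1.08 ± 0.31. Cct8 also lay above Cct2, Cct7, Tcp1 and Cct4 on all 6 arrays, though above Tcp1 by only 0.012 on lens249. It was the highest subunit on 3 arrays and the second on the others, where Cct5 (lens249 and lens455) or Cct3 (lens493) was higher. Cct6a was the lowest on 2 arrays. Of the 28 differences between subunits, 13 had one sign on all arrays. The share over pairs of all features was not counted. Since the contrast served to choose the subunits, nothing is read from this count or from the place of Cct8 above Cct6a.

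Neighbours in the order of means were mostly not apart by more than their spread. Cct2 exceeded Cct6a by 0.06 ± 0.28, Cct7 exceeded Cct2 by 0.04 ± 0.34, Tcp1 exceeded Cct7 by 0.08 ± 0.47 and Cct4 exceeded Tcp1 by 0.15 ± 0.38. Likewise Cct5 exceeded Cct3 by 0.22 ± 0.48 and Cct8 exceeded Cct5 by 0.21 ± 0.43. The step from Cct4 to Cct3, the widest in this order, was 0.32 ± 0.31 and ran one way on 6 of 6 arrays. It was 0.105, 0.098 and 0.061 on lens249, lens487 and lens488, 0.218 on lens455, and 0.751 and 0.681 on lens250 and lens493. Since the order was sorted on these same values, nothing is read from its widest step.

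In the ring order worked out for yeast and mammalian CCT, Cct2, Cct4, Tcp1, Cct3, Cct6a, Cct8, Cct7 and Cct5 follow each other, and Cct5 meets Cct2 again. Along it the means were -0.46, -0.18, -0.33, 0.14, -0.52, 0.57, -0.41 and 0.36. Cct2, Cct4 and Tcp1 are thus consecutive with means below 0, while Cct8 and Cct5 each sit between subunits with means below 0. Yeast work divides the ring into subunits that bind ATP more tightly (Tcp1, Cct2, Cct4 and Cct5) and less tightly (Cct3, Cct6a, Cct7 and Cct8). The means of the tighter 4 ran from -0.46 to 0.36 with 1 above 0, and those of the other 4 from -0.52 to 0.57 with 2 above 0.

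The dye effect, which the choice of the subunits did not use, was tested in them as a check on the arrays. It is the part of a ratio that follows the channel and not the fiber population. In limma 0 of 8 subunits showed one past an adjusted p of 0.05, and 0 did so at an unadjusted p under 0.05. Over all features these shares were 0% and 12.6%. The largest was that of Cct5, -0.24 (95% interval -0.49 to 0.01, limma adjusted p = 0.42). For Cct8 it was -0.09 (-0.31 to 0.12, limma adjusted p = 0.72) and for Cct6a -0.03 (-0.20 to 0.13, limma adjusted p = 0.89). For Cct2 it was 0.14 (-0.03 to 0.31). In Cct8, Cct6a, Cct2, Cct7 and Cct4 neither end of the interval reached the size of the mean ratio. One end exceeded it in Cct5 and Tcp1 (-0.21 to 0.43), and both ends did in Cct3 (-0.25 to 0.24). A dye effect that is the same on all arrays cancels from the means above, which hold 3 arrays of each orientation. Taken by orientation, Cct8 averaged 0.47 with mature fibers in channel 1 and 0.66 with elongating fibers there, and Cct6a -0.55 and -0.48.

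**Figure D2:**
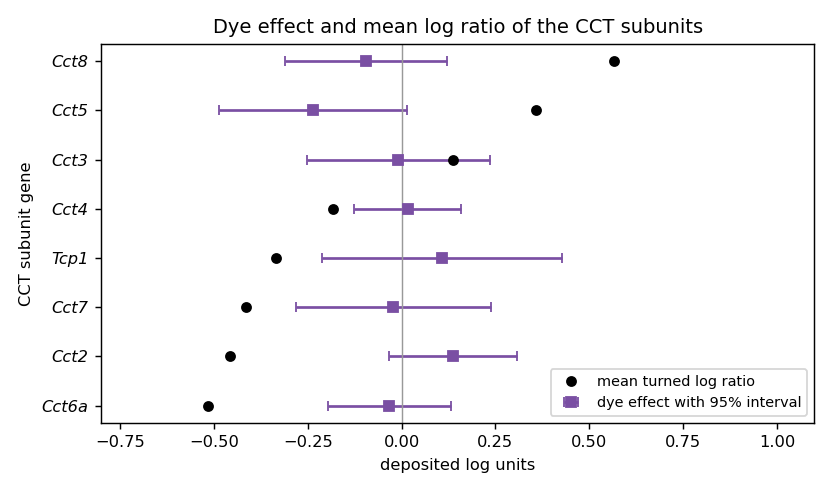
Dye effect of each CCT subunit gene (squares, with the 95% interval from limma) beside its mean turned log ratio (circles), both in deposited log units. The interval of the dye effect takes in 0 for all 8 genes, and the mean ratio lies inside it for Cct3, at 0.14.

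Promoter entries were found for 7 of the 8 subunit genes, all but Cct4, and 8 motifs were searched on both strands in the 250 bases before the most upstream start. The CCAAT box stood in 4 of the 7 (Cct7 with 3, Cct3 and Cct6a with 2 each, Tcp1 with 1), beside 34.5% of all 27025 promoters. Cct8, Cct5 and Cct2 had none. The GC box (GGGCGG) was in 7 of 7, against 33% of all, and the ETS core in 4 of 7 (Tcp1, Cct2, Cct7 and Cct8), against 12.3%. These motifs can overlap others and are frequent in promoters rich in G and C. The 7 held between 45.2% and 66.4% G and C, where the median promoter had 52.0%.

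Heat shock elements bind the heat shock factors, of which Hsf4 is the lens form. The form GAANNTTC was in 0 of 7 (6.8% of all) and the form TTCNNGAA in Cct5 (7.2% of all). The core of the cyclic AMP response element (TGACG) was in Cct6a with 3 copies (17.8% of all), the palindromic NRF1 motif in Cct3 (5.1% of all), and the E box (CACGTG) in none of the 7 (6.0% of all). A match here is a run of letters and not a shown site.

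Genes that start back to back with a subunit gene were looked up. RefSeq listed a gene on the opposite strand starting within 1000 bases upstream for 6 of the 7, and 5 of these partners were on the arrays. The share of all promoters with such a partner was not counted, so 6 of 7 is not read as particular to CCT. The partner of Cct6a is Psph, of serine synthesis, 103 bases away, and that of Cct3 is Tsacc, 136 bases away. Cct7 has Pradc1 at 203 bases, Tcp1 has Mrpl18, of the mitochondrial ribosome, at 238, and Cct5 has Atpsckmt, a mitochondrial methyltransferase, at 270. Cct8 starts 204 bases from the long noncoding RNA B130034C11Rik, for which no value was used.

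None of the 5 partners passed the test in limma, against 1.73% of all features on either side, and 1 of them, Mrpl18, had an unadjusted p under 0.05. Mrpl18 had -0.381, -0.215, -0.523, 0.314, -1.28 and -0.463, a mean of -0.42 ± 0.52 (limma adjusted p = 0.23), on the side of its partner Tcp1. Psph, beside Cct6a, had 0.432, 1.51, -0.291, -0.123, -1.27 and -0.947, a mean of -0.11 ± 1.00 (limma adjusted p = 0.91). Its values lay above 0 on lens249 and lens250 and below on the other 4, while Cct6a was below 0 throughout. Pradc1 had 0.14 ± 0.15 (limma adjusted p = 0.35) where Cct7 had -0.41, and was above 0 on 5 of 6 arrays. Atpsckmt had 0.07 ± 0.36 and Tsacc 0.0043 ± 0.28 (limma adjusted p = 0.86 and 0.99).

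**Figure D3:**
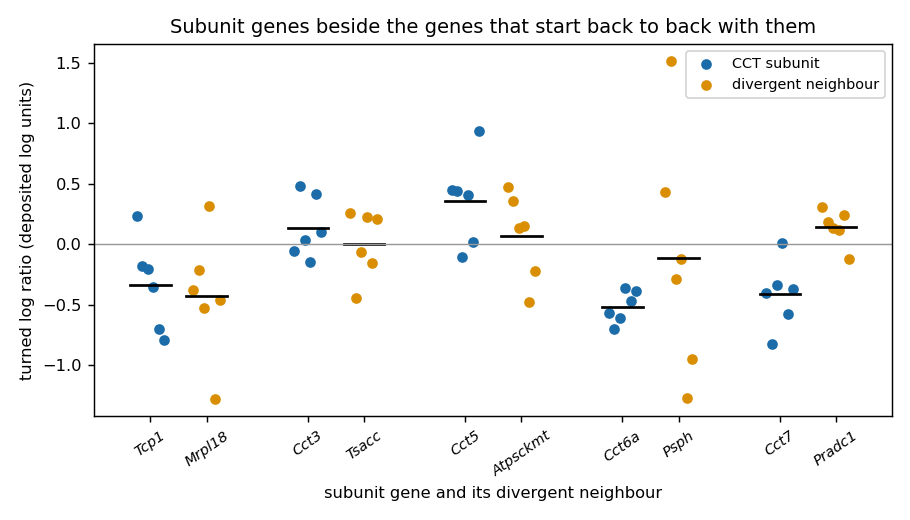
Turned log ratios, in deposited log units, of 5 CCT subunit genes and of the gene that starts back to back with each; points are the 6 arrays and bars the means. Pradc1 lies mostly above 0 where Cct7 lies below, and Psph spreads from -1.27 to 1.51 where Cct6a lies below 0 on every array.

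Lists of genes that work with CCT, of its relatives and of other chaperones were counted against the threshold. Prefoldin subunits and phosducin-like proteins bring chains to CCT or steer its action. Of 8 measured, 0 passed in limma and 2 had an unadjusted p under 0.05, with 5 above 0 and a median of 0.12. Over all features 1.73% passed and 16.2% had an unadjusted p under 0.05, and the counts in this and the following lists are to be read against these shares. Among the prefoldin subunits Pfdn2 had -0.659, -0.802, 0.061, -0.368, -0.556 and -0.569, a mean of -0.48 ± 0.30 (limma adjusted p = 0.096). It lay below 0 on all arrays but lens487. Pfdn6 had 0.26 ± 0.20 and was above 0 on 6 of 6 arrays (limma adjusted p = 0.20). Pfdn1 had 0.11 ± 0.10, Vbp1 0.13 ± 0.19, Pfdn4 0.13 ± 0.39 and the phosducin-like Pdcl2 0.12 ± 0.12. The phosducin-like Pdcl3 had -0.602, 0.839, -0.571, 0.148, -0.819 and 0.346, a mean of -0.11 ± 0.65. Its 3 values with mature fibers in channel 1 lay below 0 and the other 3 above, with a dye effect of -0.55 (limma adjusted p = 0.27).

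Of 7 genes of the prefoldin-like and R2TP complexes, which assemble larger machines, 0 passed in limma and 2 had an unadjusted p under 0.05 (median -0.04). Uri1 had -0.51 ± 0.54 (limma adjusted p = 0.26), at -0.709 or lower on 4 arrays and at 0.213 and 0.131 on lens493 and lens455. Of 5 genes listed as relatives of CCT, with Hspe1, the lid of a relative, counted among them, 0 passed in limma. An unadjusted p under 0.05 was found for 2 of these 5 (median -0.26). Cct6b, a close copy of Cct6a known mainly from testis, had -0.211, -0.058, -0.267, -0.550, -0.427 and -0.356. Its mean was -0.31 ± 0.17 (limma adjusted p = 0.12), with all 6 arrays below 0 as for Cct6a. Whether the probes of these paralogs share signal was not tested. The mitochondrial chaperonin Hspd1 had -0.27 ± 0.19, below 0 on 6 arrays (limma adjusted p = 0.15), and its lid Hspe1 had -0.09 ± 0.36.

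Among actin and tubulin clients 2 of 18 passed in limma, both on the negative side, where 1.36% of all features passed. An unadjusted p under 0.05 was found for 6 of the 18, beside 16.2% of all features. The list had 12 of 18 means below 0 and a median of -0.15. Tubb5, the beta tubulin of most dividing and growing cells, had -0.478, -0.848, -0.739, -0.653, -0.324 and -0.476, a mean of -0.59 ± 0.19 (limma adjusted p = 0.024). Actr3, of the Arp2/3 complex that branches actin filaments, had -0.368, -0.332, -0.581, -0.382, -0.571 and -0.429, a mean of -0.44 ± 0.11 (limma adjusted p = 0.023). Both lay below 0 on 6 of 6 arrays. With arrays averaged in couples both had a limma adjusted p = 0.25, and leaving out any 1 array also ended both calls. Actg1, cytoplasmic gamma actin, had -0.36 ± 0.18 (limma adjusted p = 0.065) and Actb, its beta counterpart, 0.11 ± 0.32. Neuronal Tubb3 had the highest mean, 0.44 ± 0.44 (limma adjusted p = 0.25).

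Of 20 other clients, mostly proteins with WD repeats, 0 passed in limma and 5 had an unadjusted p under 0.05, with 15 means below 0 and a median of -0.07, beside 16.2% of all features at that unadjusted p. Mlst8, a part of the mTOR complexes that CCT folds, had the lowest p, with -0.53 ± 0.35 (limma adjusted p = 0.12). It was near 0 on lens249 (-0.001) and between -0.876 and -0.683 on lens487, lens488, lens493 and lens455. The G protein beta subunit Gnb1 had -0.22 ± 0.16, below 0 on 6 arrays (limma adjusted p = 0.19).

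Of 24 heat shock factors and Hsp chaperones 1 passed, on the positive side, where 0.372% of all features passed, with 12 means on each side of 0 and a median of -0.0021. In this list 7 genes had an unadjusted p under 0.05, beside 16.2% of all features. Bag3, a partner of Hsp70 in selective autophagy, had 0.549, 0.650, 1.37, 1.24, 1.56 and 1.15, a mean of 1.09 ± 0.40 (limma adjusted p = 0.023; 0.26 with arrays averaged in couples). Its call ended without any of lens487, lens488, lens493 or lens455 (limma adjusted p from 0.061 to 0.11). Hspa8, the constitutive Hsp70, had -0.0055 ± 0.21 and Hsf4 0.05 ± 0.18 (limma adjusted p = 0.98 and 0.81). Dnajb1, an Hsp40, had 0.60 ± 0.59 and the mitochondrial Hspa9 0.29 ± 0.13 (limma adjusted p = 0.20 and 0.097).

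**Figure D4:**
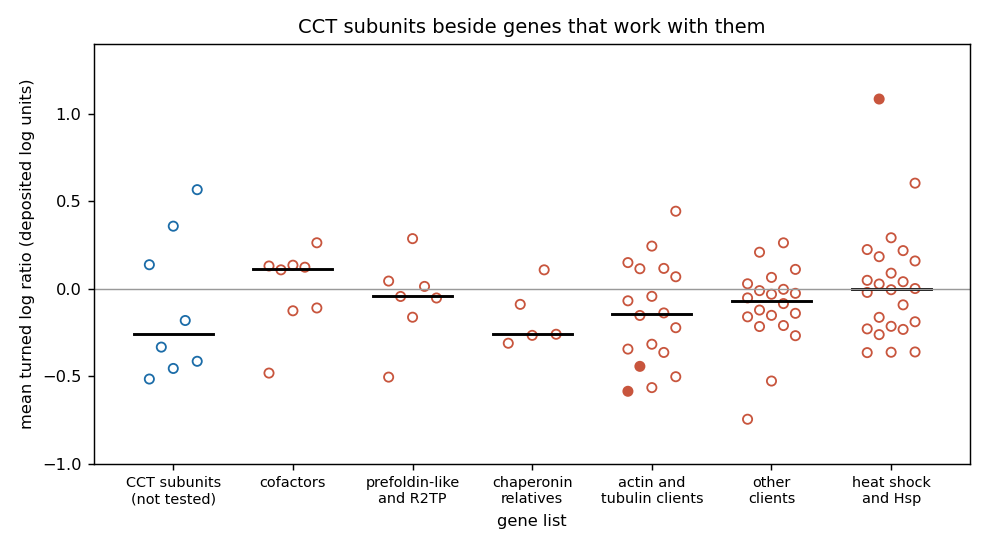
Mean turned log ratio, in deposited log units, of the 8 CCT subunits and of the genes in 6 lists of cofactors, relatives, clients and other chaperones; bars are list medians, and filled points passed an adjusted p of 0.05 in limma. The filled points are Tubb5 and Actr3 at -0.59 and -0.44 and Bag3 at 1.09; the subunits span -0.52 to 0.57.

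The genes nearest to each end of the subunit order were found by the root mean square difference over the 6 arrays, among 16503 other named genes. Nearest to Cct8 were Usp14, a deubiquitinase of the proteasome (0.109), Il1rapl2 (0.171) and the calpain family member Capn6 (0.185). Nearest to Cct6a were Pcnp (0.090), the mitochondrial protease Htra2 (0.096) and Ndfip1, an adaptor of Nedd4 ubiquitin ligases (0.097). Among the subunits Cct5 was nearest to Cct8, at place 867, and Cct7 nearest to Cct6a, at place 86. Such closeness over 6 values is a description.

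Markers of other cell types that could lie in the captured areas were counted against the shares of all features that passed, 1.73% on either side, 0.372% positive and 1.36% negative. Of 11 lens epithelium markers 1 passed in limma, the basement membrane collagen Col4a1 (-0.95 ± 0.38, adjusted p = 0.030), on the negative side. The list as a whole had no clear side, with 6 means above 0, 5 below and a median of 0.007. An unadjusted p under 0.05 was found for 2 of the 11. The list mean, which includes Col4a1, lay between -0.36 and -0.03 on the 6 arrays. Of 4 macrophage markers 1 passed, Laptm5 (0.35 ± 0.21, limma adjusted p = 0.039), on the positive side, with a list mean between 0.13 and 0.35. All 4 had a mean above 0 and 2 an unadjusted p under 0.05, beside 51% and 16.2% of all features. Of 6 blood and vessel and 6 retina and pigment cell markers 0 passed in limma, with 0 and 1 at an unadjusted p under 0.05. Their list means lay between -0.10 and 0.12 and between -0.04 and 0.19. The lens fiber markers Dnase2b and Lctl passed, of 11 measured, both on the positive side (limma adjusted p = 0.0048 and 0.018), with a list mean between -0.11 and 0.60. This list had 7 means above 0 and 4 below, and 3 of its genes had an unadjusted p under 0.05. On lens250 its members Cryaa, Cryba1 and Crybb2 had the same value, -0.442, as Tuba1a and Tubb2b of the tubulin list and Tsacc. Bfsp1, Hba-a1 and Gsn of the other clients had -0.443 there. On lens249 Cryba1, Tuba1a and Gsn shared -0.481, and on lens493 Cryaa, Cryba1, Tuba1a and Gsn shared 0.182. Such shared values enter the list means, and their cause was not tested. With arrays averaged in couples all 4 calls ended (limma adjusted p = 0.25 for Dnase2b and Lctl, 0.28 for Col4a1 and Laptm5). Leaving out 1 array ended the Laptm5 call in 6 of 6 fits (limma adjusted p from 0.093 to 0.15), that of Col4a1 in all but the fit without lens249 (up to 0.12) and that of Lctl without lens249, lens488 or lens493 (up to 0.066). Dnase2b passed in each of these 6 fits (up to 0.032). Whether such cells have a part in the ratios of the subunits was not tested.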

How the data were processed

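The deposited values are log ratios of both channels for 22575 probes on 6 arrays, with 0 missing; their base and numerator, and how the authors scanned, corrected and normalized the arrays, are not given in the sources used. The authors' column medians lay between -0.006 and 0.025. Probe names came from the platform annotation: 18218 probes had 1 symbol, 16 several and 4341 none, and 18175 matched the RefSeq gene table of GRCm38.p6 by gene ID.

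In all, 10 sets of identical unnamed probes (1032 probes) were left out. Arrays were turned, centred on their medians, and probes of a gene averaged, which gave 19624 features. The fit was limma 3.58.1 in R 4.3.3 with a dye term per gene, two-sided, Benjamini-Hochberg adjusted over all features at 0.05. It was also tried on simulated data with independent arrays and known changes. That simulation held no couples of arrays, so it cannot tell how shared RNA would affect the calls. Of all features 339 passed, 266 of them below 0 and 73 above. SDs are over the 6 turned arrays and include dye effects. The number of arrays limits the precision.

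The subunits and gene lists were chosen with earlier results of these data known. Named genes were the 8 subunits, up to 4 genes past the threshold of each list (or the one with the lowest p), the measured back-to-back partners, and the 3 genes nearest to the highest and lowest subunit. Other genes named for their role (Pfdn1, Pfdn4, Pfdn6, Vbp1, Pdcl2, Pdcl3, Hspd1, Hspe1, Actg1, Actb, Cdh2, Tubb3, Gnb1, Hspa4, Hspa8, Hspa9, Hsf4, Dnajb1) were chosen after their values were seen. So were those named for shared values (Cryaa, Cryba1, Crybb2, Tuba1a, Tubb2b, Bfsp1, Gsn, Hba-a1). Promoters came from RefSeq. Alternatives changed the centring, scaling, probe averaging, row removal, eBayes option, dye term and arrays used. Figures were drawn with matplotlib 3.10.9.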

Additional observations from a re-analysis of the deposited data

Results flagged for a closer look

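Among the 8 subunits and the other genes named by rule, 32 in all, 0 had 1 of 6 turned log ratios far enough from the rest to stand apart by Dixon's gap test at its 95% critical value. The test marks about 1 gene in 20 by chance, which is 1.6 of 32.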

How the results depend on the processing

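The mean of each subunit kept its sign under all 14 alternatives run for it (112 values in all). Several of these could not change it: each subunit has 1 probe, and averaging in couples gives the same mean. Uncentred arrays and identical rows kept shift every subunit alike, and little. Of the 112 values 0 moved by more than 1 SD. Such a move is not possible for the median, for either orientation alone or without 1 array. These counts are thus no measure of stability. Leaving out 1 array gave 0.52 to 0.63 for Cct8, 0.24 to 0.45 for Cct5, 0.07 to 0.19 for Cct3, -0.20 to -0.16 for Cct4, -0.45 to -0.24 for Tcp1, -0.50 to -0.33 for Cct7, -0.52 to -0.40 for Cct2 and -0.55 to -0.48 for Cct6a. The counts of features that passed changed with the settings. With arrays averaged in couples, or with either orientation alone, 0 features passed in limma (2395, 2609 and 2670 at an unadjusted p under 0.05), and so 0 passed in the lists of actin and tubulin clients, Hsp genes, fiber, epithelium and macrophage markers; these settings leave 3 values a gene. Without 1 array the features past the threshold numbered 117 (lens249), 102 (lens250), 38 (lens487), 16 (lens488), 71 (lens493) and 84 (lens455), with 0 actin and tubulin clients, 0 to 1 Hsp genes, 1 to 2 fiber markers, 0 to 1 epithelium markers and 0 macrophage markers. The macrophage call was also lost with no dye term (0 genes), and with the probe of largest spread per gene Hspa4 joined Bag3 (2 Hsp genes; probes of Hspa4 disagree). With identical unnamed rows kept 243 features passed. In each fit with a dye term 0 dye effects passed in limma. Signs turned for 4 genes, none of which passed the test. With elongating fibers in channel 1 alone Rpe65 had -0.0233 (0.20 over all arrays and 0.43 with mature fibers in channel 1 alone), Tsacc -0.005 and Psph 0.148. Leaving out 1 array gave -0.0572 to 0.1136 for Tsacc, -0.0387 to 0.1993 for Atpsckmt and -0.4552 to 0.1601 for Psph. The labels give no shared replicate numbers, so the paired analysis is the fit on averages of couples. Neighbouring title numbers join lens249 with lens250 and lens487 with lens488. The titles lens493 and lens455 are not neighbours, so this couple rests on the deviations and on being left over. The cause of these shifts was not tested.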
